A study of Homo sapiens with 15 samples.

Results

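The gene programmes that H1 cells switched off and on between day 4 and day 9 of a cardiac differentiation were described from bulk RNA-seq counts. The comparison held 6 of the 15 libraries of the series, with 3 from day 4 and 3 from day 9. Of the 48777 genes listed in the count table, the 21252 that passed a filter on low counts (edgeR's filterByExpr with a minimum count of 10) were tested. H1 is an established line of human embryonic stem cells. All libraries came from cells in dishes coated with the laminins LN-521 and LN-221, which stand in for the basement membrane of the early embryo and of heart muscle. On day 4 the culture, seeded in Nutristem medium, had reached confluence, and the labels do not say whether its RNA was taken before or after the change to differentiation medium. By day 9 the cells had been in RPMI medium with B27 without insulin, had received CHIR99021, an inhibitor of the kinase GSK3 that activates canonical Wnt signalling, and then IWP2, an inhibitor of Wnt ligand secretion. The label texts number the days of these additions differently, and the methods list an earlier day where the sample labels give day 9. Day and treatment therefore changed together, and time in culture, the medium and each compound cannot be told apart.

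Embryonic stem cells are kept pluripotent by a circuit of transcription factors around POU5F1, SOX2 and NANOG, together with signals from FGF2 and the Nodal branch of the TGF-beta family. A Wnt pulse drives such cells through a primitive streak-like state, marked by TBXT, EOMES and MIXL1, into mesoderm, in which MESP1 and PDGFRA mark cells that can form heart. Cardiac progenitors then express GATA, HAND, TBX and ISL1 factors before the contractile genes of muscle appear. On this path epithelial cells lose E-cadherin and acquire mesenchymal matrix and intermediate filaments.

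The gene counts summed to between 16260897 and 31859256 reads in a library. Within a day, log2 CPM of the tested genes correlated with r of 0.984 to 0.986 on day 4 and of 0.970 to 0.979 on day 9, and between the days with r of 0.847 to 0.864 (across genes, which are not independent replicates). The day 9 library of plate 2 had the lowest depth, an RNA integrity number of 8.9 where the day 4 libraries had 10, and 46% uniquely mapped reads where the other 5 libraries had 61% to 73%. In the same library 1 short gene held 17.0% of all TPM (transcript abundance corrected for gene length and scaled to the same total in every library). The labels call the libraries biological replicates and give most a plate number. Below, values in CPM (reads of a gene relative to the library's total, scaled by TMM over the 6 libraries) are listed for plates 1, 2 and 5 on day 4, and on day 9 for plate 2, plate 6 and the library without a plate number.

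At an adjusted p-value under 0.05 from edgeR's quasi-likelihood test, 5162 genes rose from day 4 to day 9 and 5244 fell. These were 24.3% and 24.7% of the genes tested, so that 49% of genes passed the test, and the counts of each list below stand beside these shares. The lists were written with earlier results of these data known, so their counts are a description and no test against these shares. With a change of at least 2-fold as a further condition, 2958 genes (13.9%) were higher and 3088 (14.5%) were lower. Changes of at least 16-fold were more often increases, with 470 genes higher and 263 lower. The median log2 fold change over all genes tested was 0.013, and the median size of a change regardless of sign was 0.57. The balance of the directions depended on the scaling. With library size in place of TMM, 5718 genes were higher and 4671 lower, with a median log2 fold change of 0.091. Of the 15268 protein-coding genes tested, 3866 were higher and 4290 lower, whereas of the 3435 long noncoding RNAs 844 were higher and 528 lower. Some genes could enter the test only through one day: 826 reached the filter's level of 0.425 CPM on day 9 but in no day 4 library, and 747 of them were higher. Likewise 518 reached it on day 4 only, and 489 of these were lower. In bulk RNA, fewer cells that express a gene and less RNA of it per cell cannot be told apart.

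**Figure D1:**
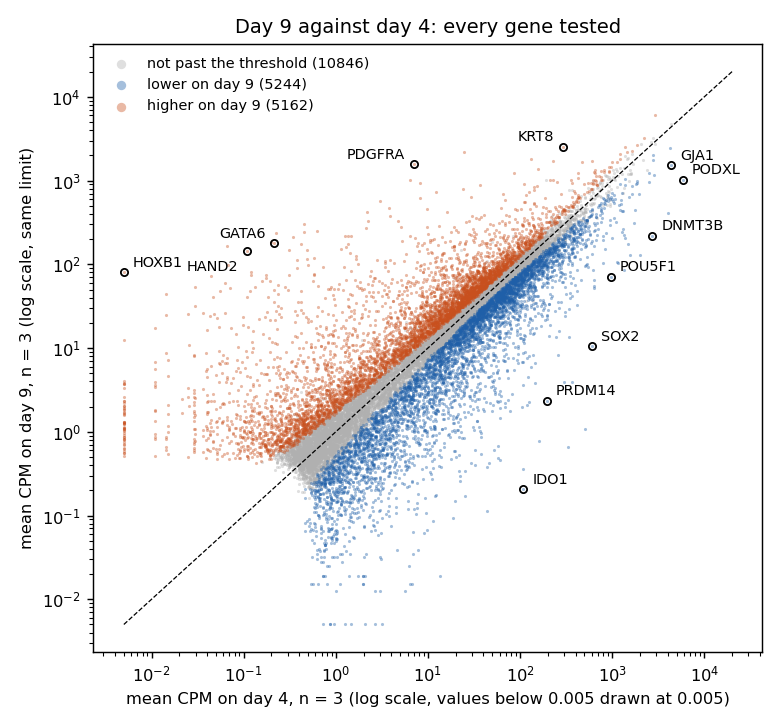
Each point is 1 of the 21252 genes tested, with its mean CPM on day 4 on the x axis and on day 9 on the y axis (both log scales, n = 3 libraries per day). Orange points are the 5162 genes higher on day 9 and blue points the 5244 genes lower on day 9, grey points did not pass the test, and the dashed line marks equal levels. Orange points far above the line sit mostly at under 1 CPM on day 4, and labelled genes such as PODXL and DNMT3B lie below the line at high levels.

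The transcription factors of pluripotency fell together. All 18 that were listed were tested, 14 were lower on day 9, 1 was higher and 3 did not pass, with a median log2 fold change of −2.44. Their summed level lay at 3218 to 3564 CPM on day 4 and at 627 to 750.3 CPM on day 9. POU5F1 (OCT4), the POU factor at the centre of the circuit and the most highly expressed member on day 4, stood at 881, 886 and 1129.7 CPM on day 4 and 94.0, 44.1 and 76.4 CPM on day 9 (log2 fold change −3.76, SE 0.29, adjusted p = 4.09e-05). SOX2, its partner on DNA, stood at 679.7, 580.1 and 558 CPM on day 4 and 15.4, 2.47 and 13.5 CPM on day 9 (log2 fold change −5.86, SE 0.63, adjusted p = 0.000248). For both, the day 9 libraries lay far under the day 4 libraries, and SOX2 was lower in plate 6 than in the other day 9 libraries. PRDM14, which holds back differentiation genes in stem cells, had the largest decrease of the list, with 191, 173 and 221.2 CPM on day 4 and 2.08, 2.05 and 2.88 CPM on day 9 (log2 fold change −6.37, SE 0.19, adjusted p = 5.9e-07). NANOG stood at 43.1, 63.7 and 74.6 CPM on day 4 and 3.11, 2.51 and 1.39 CPM on day 9 (log2 fold change −4.72, SE 0.33, adjusted p = 3.27e-05). The libraries of the 2 days did not overlap for any of these 4 genes, which was so for 29.9% of all genes tested in this direction and for 30.2% in the other. UTF1, a chromatin-bound factor of undifferentiated cells, and FOXD3 fell from means of 13.9 to 0.378 CPM and 9.78 to 0.558 CPM. SALL4 had the smallest decrease past the test, from 432 to 230.2 CPM (log2 fold change −0.91). OTX2, TFCP2L1 and MYCN did not pass, with log2 fold changes of −1.39, 0.12 and 0.30, and ZSCAN2 was the member that rose (1.397). Exons of POU5F1 overlap those of TCF19 on the other strand in GENCODE, and POU5F1 also has near-identical pseudogene copies, so the assignment of some of its reads is uncertain.

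Other genes that mark undifferentiated cells fell as well. Of 26 listed, 24 were tested, 23 were lower and none was higher, with a median log2 fold change of −2.46. Of the 24, 1 reached the filter's level on day 4 only. PODXL, the sialomucin that carries the TRA-1 antigens, was the most highly expressed on day 4 and stood at 5241, 6830.0 and 5514 CPM on day 4 and 950.0, 941 and 1177 CPM on day 9 (log2 fold change −2.52, SE 0.18, adjusted p = 1.68e-05). The largest decrease was that of DPPA3 (log2 fold change −4.43), at low levels of 3.77 and 0.185 CPM. PIM2, a survival kinase, fell from 248 to 13.6 CPM, and POLR3G, a stem cell subunit of RNA polymerase III, from 109 to 6.78 CPM. L1TD1 and DPPA4, an RNA-binding and a chromatin protein of early embryos, fell from 625 to 85.7 CPM and from 798 to 104 CPM. The let-7 inhibitor LIN28A had the smallest decrease past the test, with 3581, 2122 and 2553 CPM on day 4 and 1765, 1950.1 and 1624 CPM on day 9 (log2 fold change −0.63, SE 0.20, adjusted p = 0.0316), and it remained among the more abundant transcripts of both days. Its paralogue LIN28B did not pass (295 to 260.1 CPM, log2 fold change −0.18, adjusted p = 0.334). The decrease of LIN28A did not pass in 4 of the 6 fits that left out 1 library.

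**Figure D2:**
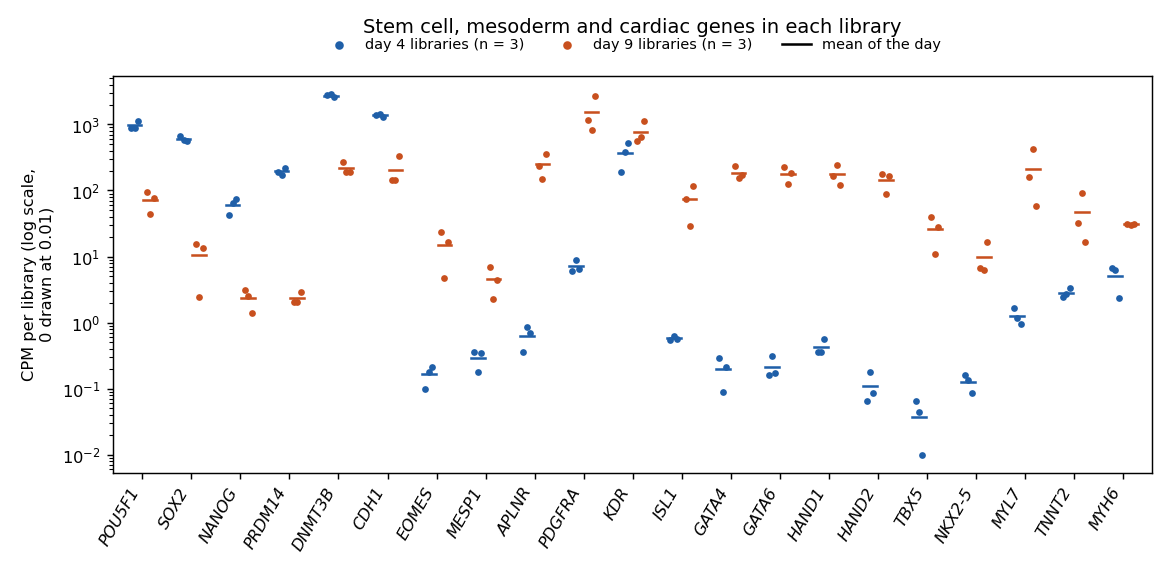
CPM of 21 genes in each library (log y axis), with day 4 libraries in blue, day 9 libraries in orange, 3 of each, and a bar at the mean of the day. Stem cell genes on the left were lower on day 9 and cardiac regulators on the right higher, without overlap between the days, and KDR, which did not pass the test, shows the smallest gap between the days.

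The host transcript of the miR-302 cluster, whose microRNAs are the most abundant of human embryonic stem cells, fell with the pluripotency factors. MIR302CHG (GRCh38 chromosome 4, 112646476 to 112650051, minus strand) stood at 11.6, 12.8 and 9.84 CPM on day 4 and 0.980, 1.28 and 2.92 CPM on day 9 (log2 fold change −2.69, SE 0.37, adjusted p = 0.00066). Rows for 4 hairpins of the cluster fell by like amounts, among them MIR302C with 25.2, 31.9 and 23.5 CPM on day 4 and 3.11, 2.88 and 8.09 CPM on day 9 (log2 fold change −2.49, SE 0.39, adjusted p = 0.00152) and MIR302A with a log2 fold change of −2.38. MIR302D and MIR367 had log2 fold changes of −2.50 and −2.45. These rows count fragments of a total RNA library over the hairpins and do not measure the mature microRNAs. Exons of MIR302CHG overlap the hairpins on the same strand and LARP7 on the other strand, and LARP7 itself fell from 198 to 60.7 CPM (log2 fold change −1.71), so that reads of the host, the hairpins and LARP7 may have been assigned to one another. The cluster was added to the gene lists after its values were seen. The mature strands are shown because 3 of the 4 share a seed (bases 2 to 8, in capitals), the stretch that pairs with target messenger RNAs, while miR-367 has another (RefSeq, 5′ to 3′).
hsa-miR-302a-3p: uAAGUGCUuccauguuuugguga
hsa-miR-302c-3p: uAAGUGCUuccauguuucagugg
hsa-miR-302d-3p: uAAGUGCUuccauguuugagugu
hsa-miR-367-3p: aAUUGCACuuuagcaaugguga

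MIR302CHG has 2 upstream windows, and the window shown was picked for its number of matches to the octamer ATGCAAAT. This octamer is the classical binding motif of POU factors and was read on both strands. The 250 bases of that window, at GRCh38.p14 chr4:112650052-112650301 on the minus strand, are shown with the octamer in capitals (RefSeq start, 5′ to 3′).
MIR302CHG upstream: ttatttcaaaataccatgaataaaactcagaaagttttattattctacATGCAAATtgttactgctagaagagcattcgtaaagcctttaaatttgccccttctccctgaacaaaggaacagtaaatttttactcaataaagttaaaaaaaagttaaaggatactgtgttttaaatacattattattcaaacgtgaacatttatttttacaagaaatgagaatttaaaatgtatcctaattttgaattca
The octamer was found in 1.63% of 35116 upstream windows of this length. It was in 0 of 16 windows of the pluripotency transcription factors and in 2 of 30 windows of the other pluripotency genes (PIM2 and SFRP2). A match describes letters only and is no evidence that a factor is bound there.

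The 10 largest decreases over the whole table, by the rule for named genes, were not led by the core circuit. They were the lncRNA genes ENSG00000260362, ENSG00000254339 and JAKMIP2-AS1, an unnamed gene (ENSG00000236673), and IDO1, NPTX1, SOX21, MT1H, CNMD and OLIG3. Of these, ENSG00000260362, JAKMIP2-AS1, IDO1, MT1H and OLIG3 lay under the filter's level of 0.425 CPM in every day 9 library. These entered the test through day 4 only, so that their decreases are a description. IDO1 (GRCh38 chromosome 8, 39902275 to 39928790, plus strand), which degrades tryptophan, stood at 90.5, 100.4 and 135 CPM on day 4 and 0.173, 0.183 and 0.262 CPM on day 9 (log2 fold change −8.97, SE 0.27, adjusted p = 5.23e-07). SOX21 (chromosome 13, 94709622 to 94712545, minus strand), a repressor that antagonises SOX2 targets, stood at 149, 104 and 70.2 CPM on day 4 and 0.288, 0.0913 and 0.711 CPM on day 9 (log2 fold change −8.10, SE 0.52, adjusted p = 2.37e-05). CNMD (chondromodulin, chromosome 13, 52703264 to 52739820, minus strand), a cartilage glycoprotein, stood at 496, 602 and 502 CPM on day 4 and 2.65, 2.88 and 4.34 CPM on day 9 (log2 fold change −7.32, SE 0.24, adjusted p = 5.9e-07). That the day 4 and day 9 libraries of these genes did not overlap was a condition of the rule. NPTX1, a neuronal pentraxin, differed more among the day 4 libraries, at 73.7, 96.1 and 819 CPM on day 4 and 0.634, 0.868 and 0.487 CPM on day 9 (log2 fold change −8.96, SE 1.30, adjusted p = 0.0013). ENSG00000254339 also stood apart in plate 5 on day 4, with 345, 344 and 822 CPM on day 4 and 1.56, 0.594 and 1.09 CPM on day 9. ENSG00000260362 had 1022 counts on day 4 and 1 on day 9, a ratio with a 95% exact interval of 158 to 34814 for counting error only. By difference in mean TPM, the largest losses were those of SNORD116-18, SNORD116-19 and SNORD116-13, small nucleolar RNAs whose exons overlap the host SNHG14, of the gap junction gene GJA1 (5350.2 to 1855 TPM) and of PODXL (3202 to 551 TPM).

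Nodal and FGF signals, which sustain the pluripotent state in culture, moved in both directions. Of 22 Nodal and TGF-beta genes tested, 6 were higher and 6 lower, near the shares of all genes (median log2 fold change 0.072). TDGF1 (Cripto), the coreceptor of Nodal, was the highest of those that fell, at 261, 729 and 935 CPM on day 4 and 63.8, 19.6 and 111 CPM on day 9 (log2 fold change −3.30, SE 0.69, adjusted p = 0.00556). The Nodal antagonists LEFTY1 and LEFTY2 fell from 1.76 to 0.395 CPM and from 4.83 to 0.790 CPM, and the activin subunit INHBB had the largest decrease (log2 fold change −3.43). Leaving out 1 library, LEFTY1 and LEFTY2 each did not pass in 5 of the 6 fits. NODAL itself was low and did not pass (1.48 to 2.68 CPM). The ligands TGFB1 and TGFB2 rose from 11.3 to 70.0 CPM and from 10.1 to 135 CPM, with TGFB2 the largest increase of the list (log2 fold change 3.72). The inhibitory SMAD7 rose from 14.7 to 91.8 CPM and the secreted TGF-beta target TGFBI from 22.4 to 186 CPM. The receptors ACVR1B, ACVR2A, ACVR2B, TGFBR1 and TGFBR2 did not pass, and ACVR2B was the most highly expressed gene of the list on day 9, at 799 CPM.

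Of 28 FGF pathway genes, 27 were tested, 9 were higher and 10 lower (median log2 fold change 0.20). FGF10 reached the filter's level on day 9 only, and 1 member on day 4 only. FGF2, the ligand that stem cell media supply, fell from 198 to 24.2 CPM (log2 fold change −3.04, SE 0.21, adjusted p = 2e-05). FGF4, a stem cell ligand, had the largest decrease, from 14.9 to 0.659 CPM (log2 fold change −4.48). FGF10, a ligand of the heart field mesoderm, stood at 0, 0.134 and 0.385 CPM on day 4 and 80.3, 39.7 and 102 CPM on day 9 (log2 fold change 8.82, SE 0.68, adjusted p = 5.1e-05). FGFR1, the most highly expressed member, fell from 1368 to 888 CPM but did not pass in 3 of the 6 fits with 1 library left out, FGFR2 fell from 432 to 298 CPM, and FGFR3 and FGFR4 did not pass. Feedback inhibitors of the pathway rose, with DUSP6, an ERK phosphatase, going from 9.77 to 281 CPM (log2 fold change 4.86, SE 0.49, adjusted p = 0.000192) and SPRY2 from 15.6 to 110.2 CPM. The ETS factors ETV4 and ETV1 fell while ETV5 rose (log2 fold changes −1.397, −0.78 and 2.30). With all 15 libraries in one fit, 5 in place of 10 members were lower.

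Epithelial junction genes moved in both directions, with E-cadherin and some claudins lower and simple-epithelial keratins higher. All 28 listed were tested, 15 were lower and 6 higher, with a median log2 fold change of −0.80. CDH1 (E-cadherin), the adhesion molecule of epithelia and of stem cell colonies, stood at 1411, 1430.3 and 1319.8 CPM on day 4 and 143, 143 and 330.4 CPM on day 9 (log2 fold change −2.75, SE 0.34, adjusted p = 0.000477). The claudins CLDN6 and CLDN10 fell from 987 to 204 CPM and from 28.5 to 2.68 CPM, and CLDN10 had the largest decrease (log2 fold change −3.38). ESRP1, which directs epithelial splicing, and GRHL2, an epithelial transcription factor, fell from 225 to 72.8 CPM and from 70.4 to 34.8 CPM. KRT8, a keratin of simple epithelia and the most highly expressed member on day 9, stood at 280.4, 307 and 287 CPM on day 4 and 2187, 3261 and 2158 CPM on day 9 (log2 fold change 3.12, SE 0.20, adjusted p = 1.11e-05). Its partners KRT18 and KRT19 rose from 115 to 665 CPM and from 157 to 1368 CPM. The desmosome genes PKP2 and DSP rose from 32.9 to 355 CPM, the largest increase of the list, and from 213 to 1017 CPM. EPCAM, a surface marker of stem cells and epithelia, did not pass (243 to 207 CPM, log2 fold change −0.23, adjusted p = 0.518). CLDN3, CLDN4 and CDH3 did not pass either. KRT8 exons overlap KRT18 on the other strand, and these keratins have processed pseudogenes that could share their reads.

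Mesenchymal genes rose. Of 22 listed, 20 were tested, 16 were higher and none was lower (median log2 fold change 3.35). Of the 20, ZEB1, TWIST1, PRRX1 and LUM reached the filter's level on day 9 only. Without the day 4 library of plate 1, POSTN, which codes for the matrix protein periostin, also passed as lower, and without the day 9 library of plate 6, THBS1 (thrombospondin 1) did. VIM (vimentin), the intermediate filament of mesenchyme and the most highly expressed member on day 9, stood at 168, 113 and 117 CPM on day 4 and 1705, 2151 and 1549 CPM on day 9 (log2 fold change 3.76, SE 0.22, adjusted p = 7.97e-06). PDGFRA, the PDGF receptor of cardiac mesoderm, stood at 6.04, 8.81 and 6.37 CPM on day 4 and 1162, 833 and 2674 CPM on day 9 (log2 fold change 7.78, SE 0.55, adjusted p = 3.43e-05), and its level in the day 9 library without a plate number was more than 2-fold that of the others. SNAI2 (Slug), a repressor of E-cadherin, stood at 0.0974, 0.581 and 0.257 CPM on day 4 and 78.99, 57.3 and 87.2 CPM on day 9 (log2 fold change 7.97, SE 0.41, adjusted p = 8.47e-06). ZEB1 and ZEB2, repressors of the same kind, rose from 0.255 to 23.8 CPM and from 0.580 to 77.1 CPM. The proteoglycan LUM had the largest increase (log2 fold change 8.88, SE 1.83, adjusted p = 0.00606), with very uneven day 9 values of 39.9, 401 and 6.89 CPM, and the cadherin CDH11 of mesenchyme rose from 29.1 to 223 CPM. PRRX2 had the smallest increase past the test (log2 fold change 1.25). TWIST2, POSTN, THBS1 and S100A4 did not pass.

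Most tested genes of the primitive streak were higher on day 9, and APLNR was the member with a high level there. Of 20 listed, 16 were tested, 13 were higher and 1 was lower, and 5 of the 16 reached the filter's level on day 9 only, so that these had to differ to enter. TBXT (brachyury) stayed under the filter with means of 0.270 and 0.857 CPM. EOMES, the T-box factor of the streak that activates MESP1, stood at 0.0974, 0.179 and 0.214 CPM on day 4 and 23.4, 4.66 and 16.4 CPM on day 9 (log2 fold change 6.50, SE 0.74, adjusted p = 0.000331). MESP1, the earliest factor of cardiac mesoderm, stood at 0.357, 0.179 and 0.342 CPM on day 4 and 6.86, 2.24 and 4.38 CPM on day 9 (log2 fold change 3.88, SE 0.49, adjusted p = 0.000382). MIXL1, a homeobox gene of mesendoderm, rose from 0.848 to 3.55 CPM, and GSC from 0.119 to 1.42 CPM. In EOMES and MESP1, plate 6 had the lowest day 9 value. APLNR, the apelin receptor that guides cardiac mesoderm, was the most highly expressed and had the largest called increase, at 0.357, 0.850 and 0.685 CPM on day 4 and 239, 149 and 363 CPM on day 9 (log2 fold change 8.67, SE 0.48, adjusted p = 1.18e-05). FGF8 had the smallest (log2 fold change 1.25, not past the test in 5 of the 6 fits with 1 library left out), and TBX6 and WNT3A did not pass. CDX4 was the member that fell, from 2.42 to 0.0661 CPM, and 1 of the 16 reached the filter's level on day 4 only.

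The regulators of cardiac progenitors rose. Of 35 listed, which were transcription factors and the ligand BMP10, 34 were tested, 29 were higher, 1 was lower and 4 did not pass. The median log2 fold change of 6.10 is a description, since 13 of the 34 reached the filter's level on day 9 only. Summed over the list, day 4 libraries held 290.2 to 325 CPM and day 9 libraries 2404 to 3024 CPM. GATA4, a zinc finger factor needed for heart formation, stood at 0.292, 0.0894 and 0.214 CPM on day 4 and 239, 152 and 169.9 CPM on day 9 (log2 fold change 9.78, SE 0.34, adjusted p = 9.51e-07). GATA6, which acts with it, stood at 0.162, 0.313 and 0.171 CPM on day 4 and 226, 127 and 184 CPM on day 9 (log2 fold change 9.70, SE 0.35, adjusted p = 1.27e-06). HAND2, the bHLH factor of the anterior heart field, stood at 0.0649, 0.179 and 0.0856 CPM on day 4 and 180.1, 89.5 and 167 CPM on day 9 (log2 fold change 10.37, SE 0.45, adjusted p = 4.27e-06), and HAND1, its relative in the first forming chambers, at 0.357, 0.358 and 0.556 CPM on day 4 and 168, 241 and 119 CPM on day 9 (log2 fold change 8.70, SE 0.37, adjusted p = 3.72e-06). MEIS1, a homeobox cofactor of HOX proteins, reached the highest mean of the list on day 9, 299 CPM from 0.446 CPM. In the T-box family TBX5, TBX20, TBX2 and TBX3 rose to 26.2, 90.8, 62.9 and 118 CPM from under 1 CPM. For TBX5, the day 4 libraries held 3 counts in all and the day 9 libraries 1676, a ratio with a 95% exact interval of 221.5 to 3147.

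Some of these factors varied among the day 9 libraries. ISL1, the marker of the late-differentiating heart field, stood at 0.552, 0.626 and 0.556 CPM on day 4 and 75.2, 28.5 and 119 CPM on day 9 (log2 fold change 7.00, SE 0.61, adjusted p = 9.33e-05) and was lowest in plate 6. NKX2-5, the homeobox factor of committed cardiac cells, stood at 0.162, 0.134 and 0.0856 CPM on day 4 and 6.69, 6.21 and 16.8 CPM on day 9 (log2 fold change 6.20, SE 0.57, adjusted p = 9.77e-05). It was highest in the library without a plate number. MYOCD and MEF2C, coactivator and MADS-box factor of muscle genes, rose from 0.818 to 50.9 CPM and from 0.643 to 31.1 CPM. TEAD1, MEF2A and PBX3 were expressed on day 4 already and rose by smaller amounts (log2 fold changes 1.70, 1.42 and 2.20), MEF2A being the smallest increase past the test. MEF2D, SRF, IRX5 and HEY2 did not pass. IRX4, a ventricular homeobox gene, was the member that fell, from 1.61 to 0.900 CPM (log2 fold change −0.85, adjusted p = 0.047). Of the 6 fits that left out 1 library, IRX4 passed only in that without the day 9 library of plate 2.

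The HAND2 start lies in a window with a GATA motif, and its upstream 250 bases (GRCh38.p14 chr4:173530230-173530479, minus strand, RefSeq) are shown because HAND2 and the GATA factors GATA4 and GATA6 had the largest increases of the list after BMP10. Capitals mark AGATAA, here read on the opposite strand.
HAND2 upstream: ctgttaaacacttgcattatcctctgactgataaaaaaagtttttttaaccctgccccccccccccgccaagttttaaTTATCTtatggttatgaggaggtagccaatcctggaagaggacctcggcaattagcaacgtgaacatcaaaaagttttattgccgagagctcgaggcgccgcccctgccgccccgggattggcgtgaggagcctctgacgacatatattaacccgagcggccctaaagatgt
AGATAA, on either strand, was in 9.17% of all 35116 windows. Among the cardiac regulators 4 of 37 windows held it (10.8%, those of BMP10, HAND2, ISL1 and SMARCD3), and among the sarcomere genes described next 7 of 33 (21.2%). MYBPC3 and TNNI3, which did not pass the test, were among these sarcomere genes. Matches to this motif describe letters only.

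By the rule for named genes, the 10 largest increases over the whole table were HOXB1, HOXB-AS1, BMP10, CBLN2, COL19A1, LINC00261, GATA6-AS1, FSHR, HAND2 and SLC40A1. All 10 lay under the filter's level of 0.425 CPM in every day 4 library. They entered the test through day 9 only, so that their increases are a description. HOXB1 had 0 counts on day 4 and 69.7, 116 and 53.9 CPM on day 9, at least 2007-fold higher against a floor of 3 counts over the group. BMP10 (chromosome 2, 68860909 to 68871397, minus strand), a ligand of the embryonic heart chambers, had 1 count on day 4 and 3117 on day 9, and its ratio had a 95% exact interval of 649 to 142936 (counting error only). CBLN2 (chromosome 18, 72536680 to 72638521, minus strand), a secreted synaptic organiser, stood at 0.0649, 0.0894 and 0.0428 CPM on day 4 and 156, 148 and 197 CPM on day 9 (log2 fold change 11.21, SE 0.25, adjusted p = 2.86e-07). SLC40A1 (ferroportin, chromosome 2, 189560590 to 189583758, minus strand), the cellular iron exporter, stood at 0.195, 0.224 and 0.257 CPM on day 4 and 181, 312 and 217 CPM on day 9 (log2 fold change 10.02, SE 0.32, adjusted p = 5.9e-07). In both genes the day 9 libraries were close to each other, and libraries that did not overlap between the days were a condition of the rule. GATA6-AS1 stood at 0.0325, 0 and 0.171 CPM on day 4 and 139, 80.2 and 75.7 CPM on day 9 (log2 fold change 10.44, SE 0.54, adjusted p = 8.69e-06), and its exons overlap those of GATA6 on the other strand. LINC00261, a lncRNA that lies beside FOXA2, rose to 72.4 ± 16.2 CPM (SD, n = 3) from 3 counts in all on day 4 (95% exact interval of the ratio 635 to 9002). The gonadotropin receptor gene FSHR reached 25.01 CPM (interval of the ratio 353 to 77886) and the collagen COL19A1 53.7 CPM (587 to 17530.4). The largest gains in mean TPM were those of the spliceosomal RNAs RNU4-2 and RNU4-1, which have near-identical copies, of KRT19 (253 to 2169.6 TPM), of KRT8 (218 to 1899 TPM) and of the ribosomal protein gene RPS18.

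Sarcomere genes rose. Of 32 listed, 30 were tested, 21 were higher and none was lower (median log2 fold change 2.08, 1 at the filter's level on day 9 only). MYL7, the atrial light chain that marks the early heart tube, stood at 1.69, 1.16 and 0.941 CPM on day 4 and 158, 429 and 59.1 CPM on day 9 (log2 fold change 7.38, SE 0.83, adjusted p = 0.00031). ACTC1, cardiac actin, stood at 11.3, 8.09 and 10.8 CPM on day 4 and 226, 350.4 and 111 CPM on day 9 (log2 fold change 4.51, SE 0.43, adjusted p = 0.000138), and TNNT2, cardiac troponin T, at 2.40, 2.73 and 3.38 CPM on day 4 and 31.9, 91.5 and 16.8 CPM on day 9 (log2 fold change 4.04, SE 0.63, adjusted p = 0.00142). In all 3 genes plate 6 had the highest and the library without a plate number the lowest day 9 value. ANKRD1, a stretch-responsive protein of the Z-disc, had the largest increase (0.455 to 243 CPM, log2 fold change 9.01) and TPM4 the smallest (log2 fold change 0.51). TPM1, the most highly expressed, rose from 249 to 949 CPM, and titin (TTN) from 65.5 to 685 CPM. MYH6, the atrial myosin heavy chain, stood at 6.69, 6.22 and 2.35 CPM on day 4 and 31.4, 30.3 and 31.1 CPM on day 9 (log2 fold change 2.60, SE 0.34, adjusted p = 0.000624). Several genes of working heart muscle did not pass, among them MYH7 (0.483 to 0.781 CPM), MYBPC3 (0.686 to 0.980 CPM), TNNI3 (9.99 to 8.40 CPM) and ACTN2 (3.46 to 8.36 CPM), and MYL2 and CSRP3 stayed under the filter.

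Ion handling genes moved in both directions. Of 22 listed, 20 were tested, 6 were higher and 4 lower, near the shares of all genes, and 2 reached the filter's level on day 9 only. The natriuretic peptide gene NPPB rose from 0.0726 to 17.3 CPM (log2 fold change 7.92), the largest increase, the atrial potassium channel KCNJ5 from 0.123 to 8.97 CPM and phospholamban (PLN) from 0.365 to 4.97 CPM, which did not pass in 5 of the 6 fits that left out 1 library. GJA1 (connexin 43), which joins stem cells as well as heart muscle cells, stood at 3387, 5062 and 4525 CPM on day 4 and 1302, 1159 and 2125 CPM on day 9 (log2 fold change −1.500, SE 0.26, adjusted p = 0.0019). RYR2, ATP2A2, SLC8A1 and HCN4 did not pass, and NPPA and CASQ2 stayed under the filter. Without the day 9 library of plate 6, RYR2 passed as lower.

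Endothelial and blood genes gave a mixed picture in which early factors rose and several receptors fell. Of 24 listed, 22 were tested, 13 were higher and 4 lower, and 5 reached the filter's level on day 9 only. KDR (VEGF receptor 2), expressed by stem cells and by early mesoderm, did not pass, with 191, 385 and 517 CPM on day 4 and 567, 645 and 1131 CPM on day 9 (log2 fold change 1.10, SE 0.39, adjusted p = 0.0503), although its lowest day 9 value was above its highest day 4 value. It passed with DESeq2, with library size in place of TMM, with a mean of at least 1 CPM required, with the 20 most counted genes left out, without the day 4 library of plate 5 and without the day 9 library of plate 6, and did not pass in the other fits. FLT1, the decoy receptor for VEGF, fell from 337 to 113 CPM, and FLT4 had the largest decrease (log2 fold change −2.47). GATA2, a factor of blood and endothelial progenitors, rose from 1.49 to 42.8 CPM, the largest increase (log2 fold change 4.83). ETV2, TAL1 and LMO2, which specify blood and vessel progenitors, rose from 1.71 to 9.53 CPM, 0.231 to 5.90 CPM and 1.27 to 8.88 CPM. VWF rose from 7.34 to 90.0 CPM and did not pass in 3 of the 6 fits with 1 library left out. The defining endothelial markers PECAM1 and CDH5 reached only 1.82 and 3.51 CPM. Summed over the 5 endothelial markers the levels were 41.0 to 71.2 CPM on day 4 and 22.0 to 50.1 CPM on day 9, mostly TEK, whose 2 days did not differ past the test (45.5 to 27.5 CPM).

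Genes of definitive endoderm, liver and yolk sac rose beside the cardiac genes. Of 25 listed, 23 were tested, 19 were higher and none was lower. The median log2 fold change of 5.47 is a description, since 11 of the 23 reached the filter's level on day 9 only. SOX17, an HMG-box factor of definitive endoderm, had the largest increase, at 0, 0.0894 and 0 CPM on day 4 and 45.0, 17.5 and 32.1 CPM on day 9 (log2 fold change 9.97, SE 0.70, adjusted p = 3.4e-05). It had 2 counts in all on day 4, and its count ratio had a 95% exact interval of 324 to 9696. FOXA2, the pioneer factor of gut endoderm, stood at 0.0325, 0.179 and 0 CPM on day 4 and 58.8, 35.9 and 60.8 CPM on day 9 (log2 fold change 9.51, SE 0.51, adjusted p = 9.03e-06), and HNF4A, a nuclear receptor of liver and visceral endoderm, at 0, 0.179 and 0.171 CPM on day 4 and 52.2, 63.9 and 29.5 CPM on day 9 (log2 fold change 8.77, SE 0.58, adjusted p = 2.56e-05). Every day 9 library held these factors at more than 15 CPM. Secreted proteins of liver and yolk sac rose too: APOA1, the most highly expressed, stood at 0.779, 1.92 and 0.685 CPM on day 4 and 103, 278 and 77.8 CPM on day 9 (log2 fold change 7.11, SE 0.68, adjusted p = 0.000138), and FGB and TTR rose from 0.0555 to 48.5 CPM and from 0.194 to 62.8 CPM. AFP, a defining product of visceral endoderm, did not pass (2.37 to 2.27 CPM), nor did SERPINA1, TF and FOXA3. CLDN18 had the smallest increase (log2 fold change 1.09, not passing in 3 of the 6 fits with 1 library left out). The 6 endoderm markers of the marker table summed to 1.80 to 4.52 CPM on day 4 and 175 to 279.6 CPM on day 9, against 2000 to 4408 CPM for the 7 cardiac progenitor markers on day 9, most of it PDGFRA and KDR, the second of which did not pass the test. What share of cells carried these transcripts was not tested.

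Of the markers of other cell types, PAX6, SOX1 and POU3F2 of neuroectoderm were low on both days, and part of the epicardial list was higher on day 9. PAX6 stood at 0.617, 1.48 and 1.28 CPM on day 4 and 1.33, 1.23 and 0.412 CPM on day 9, SOX1 had 12 counts in all on day 4 and 1 on day 9, and POU3F2 rose from a mean of 0.175 to 2.42 CPM. In the longer neuroectoderm list 12 of 20 genes were tested, 4 were higher and 6 lower, and 3 reached the filter's level on day 9 only. LHX5, a forebrain homeobox gene, had the largest decrease, from 60.1 to 0.465 CPM (log2 fold change −6.99), and PAX3 and PAX7 rose to 2.82 and 3.36 CPM. Among 14 epicardial genes, 12 were tested, 6 were higher and 2 lower, and 3 reached the filter's level on day 9 only. BNC1 rose from 0.560 to 63.6 CPM and TCF21 had the largest increase (0.0596 to 8.24 CPM, log2 fold change 7.15), while PDPN, a mucin-type protein of stem cells and mesothelium, had the largest decrease (336 to 29.0 CPM, log2 fold change −3.54). The marker UPK3B fell too, from 4.65 to 0.547 CPM (log2 fold change −3.15). Summed over the epicardial list, the levels were 473 to 511 CPM on day 4 and 112 to 253 CPM on day 9. WT1, a defining epicardial gene, stayed under the filter, with day 9 values of 0.807, 11.4 and 0.187 CPM, nearly all of it in plate 6. Without the day 9 library of plate 6, 5 in place of 2 genes of this list were lower. The 5 blood markers summed to at most 12.8 CPM on day 9. By markers, the day 4 libraries held the pluripotency genes of their label at 5801 to 6845 CPM over 7 genes, and the day 9 libraries still held 1999 to 2215 CPM, most of it LIN28A.

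**Figure D3:**
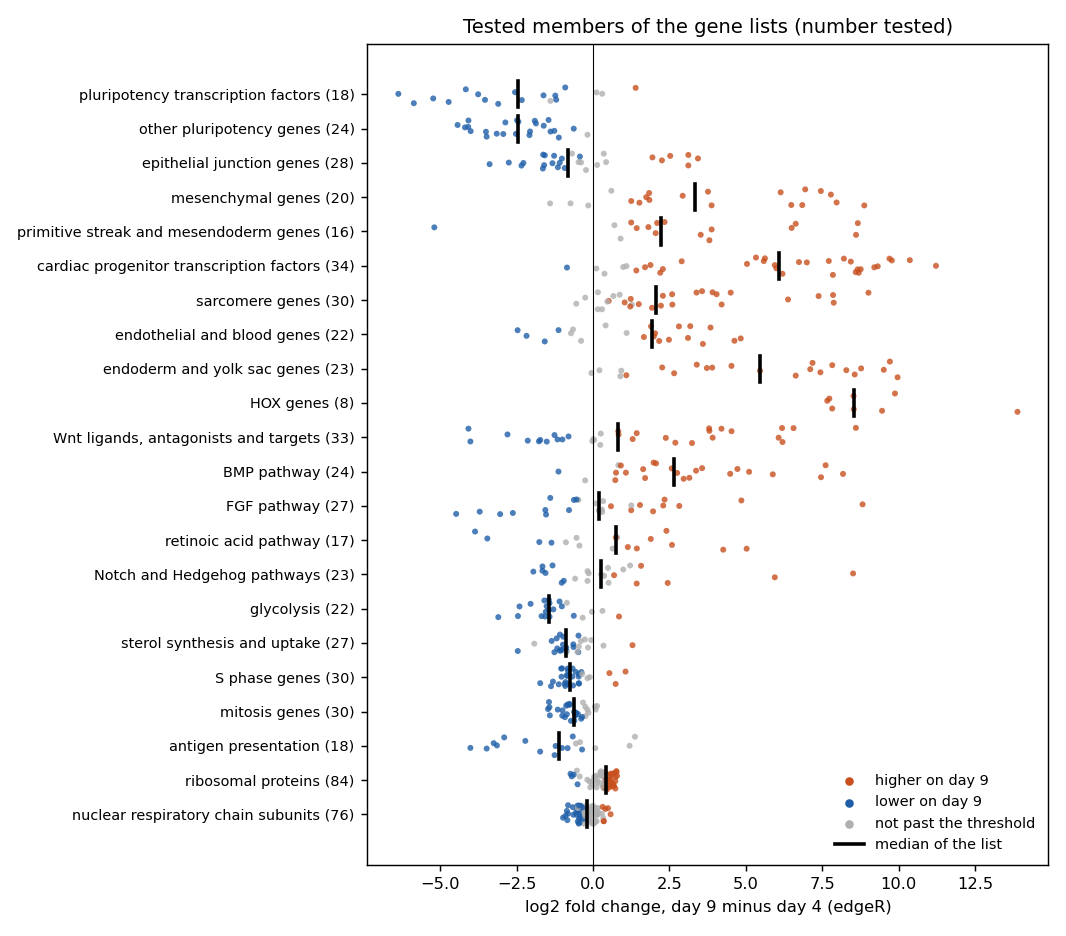
The log2 fold change (x axis, day 9 minus day 4, edgeR) of each tested member of 22 gene lists, with orange for higher, blue for lower, grey for not past the test and a black bar at the list's median. Both pluripotency lists lie to the left at medians of −2.44 and −2.46, and the HOX, cardiac and endoderm lists lie farthest to the right, where the filter admits many genes only through day 9.

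HOX genes, which give cells their position along the body axis, appeared from near 0. Of 39 listed, 8 passed the filter, all through day 9 alone, and 31 did not, so that the 8 higher genes are a description. HOXB1 (chromosome 17, 48528526 to 48531011, minus strand) reached the highest level. HOXB2, HOXB3 and HOXB4 followed with day 9 values of 38.3, 51.9 and 30.5 CPM, 38.3, 54.1 and 28.1 CPM and 14.2, 29.5 and 7.94 CPM. HOXB5 and HOXB7 were lower, at means of 3.90 and 1.94 CPM, and HOXA2 at 1.07 CPM. In every tested HOX gene plate 6 was highest and the library without a plate number lowest. No HOXC or HOXD gene passed the filter, and their highest day 9 mean was 0.722 CPM, that of HOXC8. Exons of HOXB3 and HOXB4 overlap each other and those of HOXB-AS1 and HOXB-AS3 overlap HOXB2 and HOXB3, so some reads could have been split between them. With 1 library left out, other genes passed the filter, and 14 HOX genes were higher without the day 4 libraries of plates 1 and 2 and 15 without that of plate 5 or the day 9 library without a plate number.

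**Figure D4:**
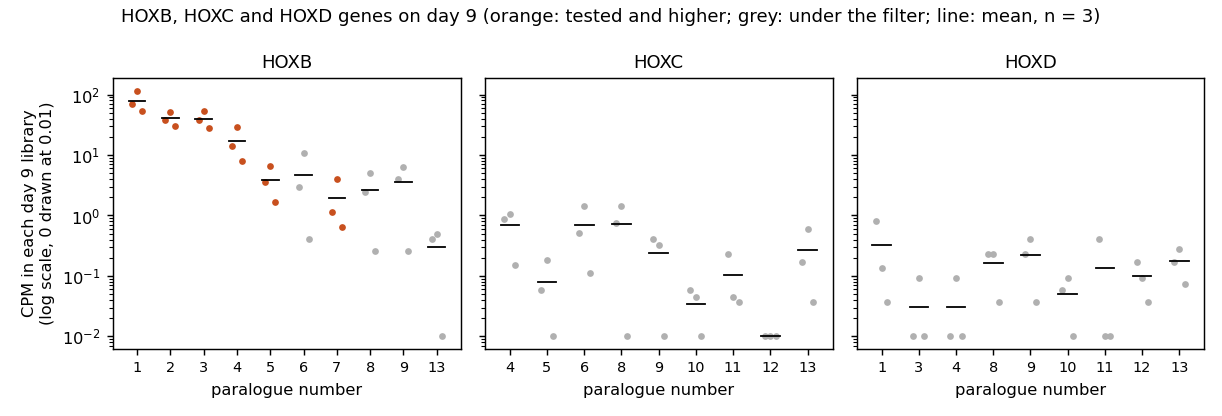
CPM of each gene of the HOXB, HOXC and HOXD clusters in the 3 day 9 libraries (log y axis, points), by cluster and by paralogue number on the x axis, with a line at the mean. Orange genes were tested and higher, grey ones stayed under the filter. Levels were highest for HOXB1 to HOXB4, and the day 9 mean of HOXB1 was above that of every other gene shown.

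Wnt pathway genes moved in both directions. Of 36 listed, 33 were tested, 17 were higher and 11 lower, with 3 at the filter's level on day 9 only. The transcriptional targets LEF1 and SP5 stood at 1.66, 1.16 and 0.856 CPM on day 4 and 88.6, 104 and 83.5 CPM on day 9 (log2 fold change 6.20, SE 0.23, adjusted p = 1.06e-06) and at 0.454, 0.402 and 0.385 CPM on day 4 and 32.3, 21.5 and 31.4 CPM on day 9 (log2 fold change 6.07, SE 0.25, adjusted p = 1.59e-06). LGR5, a target gene and receptor for R-spondins, had the largest increase (0.175 to 68.2 CPM, log2 fold change 8.60). Not all targets rose, as AXIN2, a feedback scaffold, fell from 42.6 to 17.8 CPM (log2 fold change −1.26, SE 0.14, adjusted p = 0.000154). Among ligands WNT5A, which acts in the heart field, rose from 7.94 to 146 CPM, WNT5B from 0.653 to 14.9 CPM, WNT3 from 1.58 to 22.3 CPM and WNT11 from 0.926 to 13.97 CPM, while WNT4 fell from 9.98 to 3.03 CPM. The secreted antagonists split: SFRP5 rose from 17.6 to 245 CPM, whereas SFRP1, SFRP2 and FRZB fell from 1091 to 321 CPM, 139 to 8.21 CPM and 55.1 to 7.92 CPM. SFRP2 had the largest decrease (log2 fold change −4.07) and SFRP1 the highest level of the list on day 4. Of the receptors, FZD5 and FZD7, both typical of stem cells, fell from 537 to 122 CPM and from 818 to 470.1 CPM (FZD7 not passing in 4 of the 6 fits with 1 library left out), and FZD4 rose from 32.2 to 208 CPM.

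The BMP pathway rose at nearly every level of the cascade. Of 25 genes listed, 24 were tested, 21 were higher, 1 was lower and 2 did not pass (median log2 fold change 2.66, 2 at the filter's level on day 9 only). BMP4, the ligand that specifies mesoderm, stood at 4.15, 6.62 and 8.30 CPM on day 4 and 200.1, 176 and 279 CPM on day 9 (log2 fold change 5.11, SE 0.31, adjusted p = 1.55e-05), BMP2 rose from 18.2 to 162 CPM and BMP5 from 0.376 to 111 CPM, the largest increase (log2 fold change 8.18). BMP7 was the member that fell, from 65.2 to 29.8 CPM. The direct targets ID1, ID2, ID3 and ID4 rose from 142 to 268 CPM, 58.4 to 244 CPM, 41.4 to 247 CPM and 56.1 to 183 CPM. MSX1 and MSX2, homeobox targets, rose from 0.238 to 44.3 CPM and from 0.856 to 50.1 CPM. Inhibitors rose as well. SMAD6 rose from 15.99 to 423 CPM (log2 fold change 4.73, SE 0.25, adjusted p = 5.76e-06). BMPER, a secreted modulator and the most highly expressed member on day 9, stood at 1.75, 2.19 and 2.61 CPM on day 4 and 319.7, 253 and 703 CPM on day 9 (log2 fold change 7.61, SE 0.49, adjusted p = 2.4e-05), and BAMBI, a decoy receptor, rose from 27.7 to 329 CPM. Of the receptors BMPR2 had the smallest increase past the test (log2 fold change 0.73), and BMPR1A and BMPR1B did not pass.

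Retinoic acid genes moved in both directions. Of 18 listed, 17 were tested, 8 were higher and 4 lower, and 1 reached the filter's level on day 9 only. CYP26A1, the enzyme that clears retinoic acid, had the largest decrease, at 358, 192 and 64.8 CPM on day 4 and 10.5, 9.95 and 21.7 CPM on day 9 (log2 fold change −3.86, SE 0.64, adjusted p = 0.00189). RARB, a receptor and target gene, had the largest increase, from 1.71 to 55.0 CPM (log2 fold change 5.03, SE 0.32, adjusted p = 1.76e-05), and RDH10, which makes retinaldehyde, rose from 10.9 to 65.6 CPM. The synthesis gene ALDH1A2 rose at low levels, from 0.410 to 1.51 CPM. CRABP2, the most highly expressed member, did not pass (211 to 329 CPM). In the Notch and Hedgehog lists 23 of 24 genes were tested, 6 were higher and 7 lower, near the shares of all genes. Of the 23, 1 reached the filter's level on day 9 only. NOTCH1 and NOTCH3 fell from 397 to 126 CPM and from 509 to 162 CPM, JAG2 had the largest decrease (log2 fold change −1.95) and HEY1, a target of Notch, rose from 0.883 to 54.1 CPM. The ligand IHH had the largest increase, from 0.108 to 40.1 CPM (log2 fold change 8.51), while GLI1, a readout gene of Hedgehog signalling, fell from 27.2 to 9.30 CPM. JAG1, the most highly expressed on day 9, did not pass, with 331, 349 and 328 CPM on day 4 and 509.7, 143 and 1684 CPM on day 9 (adjusted p = 0.199), where the day 9 library without a plate number stood highest. Of ephrins and Eph receptors, which sort cells at boundaries, 21 were tested, 8 were higher and 9 lower, from EPHA1 (279 to 35.9 CPM, log2 fold change −2.96) to EPHB3 (11.1 to 194 CPM, log2 fold change 4.12).

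The extracellular matrix changed in composition. Of 44 collagen chains, 43 were tested, 20 were higher and 12 lower (median log2 fold change 0.59). Among them 1 reached the filter's level on day 9 only. COL3A1, the fibrillar collagen of embryonic mesenchyme, stood at 2.27, 5.50 and 1.24 CPM on day 4 and 215, 1441 and 40.6 CPM on day 9 (log2 fold change 7.57, SE 1.49, adjusted p = 0.00503). COL2A1, known from cartilage and notochord, rose from 23.9 to 792 CPM, and the basement membrane chains COL4A1 and COL4A6 from 354 to 1027 CPM and from 61.6 to 472 CPM. COL18A1, the most highly expressed on day 9, rose from 598 to 1704 CPM. COL8A2 had the largest decrease (20.3 to 3.22 CPM, log2 fold change −2.66) and COL14A1 fell from 205 to 33.7 CPM. COL6A3 did not pass in spite of its size, with 12.2, 26.3 and 30.6 CPM on day 4 and 52.7, 362 and 25.2 CPM on day 9 (log2 fold change 2.67, SE 0.97, adjusted p = 0.056), where plate 6 stood far above the other day 9 libraries. With all 15 libraries in one fit 6 collagen chains were lower.

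Among laminin chains 11 were tested, 3 were higher and 7 lower. The chains of laminin-111, the first laminin of the embryo, were those that rose. LAMA1 stood at 454, 492 and 459.6 CPM on day 4 and 1327, 1294 and 2429 CPM on day 9 (log2 fold change 1.84, SE 0.25, adjusted p = 0.000557), and LAMB1 and LAMC1 rose from 280.1 to 687 CPM and from 638 to 1269.5 CPM. LAMA2, the chain of muscle laminin, had the largest decrease (84.5 to 11.6 CPM, log2 fold change −2.87), and LAMA5, the alpha chain of the coated LN-521, fell from 479.7 to 361 CPM (log2 fold change −0.41). The decrease of LAMA5 did not pass in 2 of the 6 fits with 1 library left out. Without the day 9 library of plate 2, 4 in place of 7 laminin chains were lower. Of 26 integrin subunits, 23 were tested, 5 were higher and 8 lower, and 2 reached the filter's level on day 9 only. ITGA6, the laminin receptor subunit of stem cells, stood at 518, 676 and 692 CPM on day 4 and 39.8, 39.1 and 78.2 CPM on day 9 (log2 fold change −3.58, SE 0.31, adjusted p = 7.92e-05). ITGA5, which pairs into the fibronectin receptor, rose from 75.9 to 322 CPM, ITGA8 had the largest increase (log2 fold change 9.25) and ITGA4 the largest decrease (10.1 to 0.601 CPM, log2 fold change −4.12). Their common partner ITGB1 did not pass (638 to 610.1 CPM). Without the day 4 library of plate 1 or of plate 2, 3 in place of 5 integrin genes were higher. Of 82 cadherins and protocadherins tested, 34 were lower and 12 higher. Among them 2 reached the filter's level on day 9 only and 3 on day 4 only. The range was from CDH9 (7.77 to 0.0384 CPM) at the low end to CDH5 at the high end. CDH2 (N-cadherin), the most highly expressed on day 9, rose from 129 to 459.6 CPM.

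Most glycolysis genes fell. All 22 listed were tested, 17 were lower, 1 was higher and 4 did not pass, with a median log2 fold change of −1.43. Their summed level was 19181 to 23680.4 CPM on day 4 and 8943 to 11867 CPM on day 9. The glucose transporter SLC2A1 had the largest decrease, at 1283, 1421 and 1775 CPM on day 4 and 132, 192 and 199 CPM on day 9 (log2 fold change −3.10, SE 0.21, adjusted p = 1.53e-05). Phosphoglycerate kinase (PGK1) stood at 1772, 1376 and 2022 CPM on day 4 and 342, 295 and 306 CPM on day 9 (log2 fold change −2.45, SE 0.18, adjusted p = 1.89e-05) and lactate dehydrogenase A (LDHA) at 1367, 1102 and 1376 CPM on day 4 and 359.7, 145 and 223 CPM on day 9 (log2 fold change −2.40, SE 0.32, adjusted p = 0.000625). Hexokinase 2 (HK2), which commits glucose to the cell, fell from 223 to 54.1 CPM, and PFKL had the smallest decrease (log2 fold change −0.63). ENO1, the most highly expressed on day 4, fell from 2843 to 1158 CPM. SLC2A3, a second glucose transporter, was the gene that rose, at 1190.1, 1317 and 1640.4 CPM on day 4 and 2135, 1880.4 and 3469 CPM on day 9 (log2 fold change 0.85, SE 0.25, adjusted p = 0.0207), and it was higher than any other member on day 9. Without the day 4 library of plate 1 or of plate 2 it did not pass. PFKM, PFKP, LDHB and SLC16A1 did not pass. ACGTG, the core letters of the hypoxia-response element on either strand, was in 16 of 45 upstream windows of these 22 genes (35.6%). It was in 18.5% of all windows of this length. A gene can have more than 1 window, and PFKM and PFKP, which did not pass, were among the genes with a match. Such matches describe letters only, and a role of hypoxia was not tested.

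Sterol and lipid synthesis fell by smaller amounts. All 27 genes were tested, 17 were lower and 1 higher (median log2 fold change −0.87). Fatty acid synthase (FASN) fell from 1045 to 533 CPM, and squalene epoxidase (SQLE), an enzyme of cholesterol synthesis, from 246 to 116 CPM. SC5D was the gene that rose, from 126 to 308 CPM, and STARD4 had the smallest decrease (log2 fold change −0.47, not passing in 4 of the 6 fits with 1 library left out). SCD, the most highly expressed on day 4, did not pass (1300.2 to 713 CPM). Genes of the amino acid stress response showed no common direction, with 4 of 21 tested higher and 3 lower. ATF4, its central factor, rose from 209.9 to 429 CPM, while the mTOR inhibitor DDIT4 fell from 141 to 42.1 CPM. Without the day 9 library of plate 6, 6 in place of 3 of these genes were lower, and with all 15 libraries in one fit 1 was lower and 0 higher. Among nuclear-encoded subunits of the respiratory chain 27 of 76 were lower and 6 higher, all by less than 2-fold, with a median log2 fold change of −0.19. Their lower count ranged from 13 to 22 when 1 library was left out, falling to 13 without the day 9 library of plate 2 and to 15 without the day 4 library of plate 1. Their higher count fell to 1 without the day 4 library of plate 2 and to 2 without that of plate 5 or without the day 9 library of plate 6. With all 15 libraries in one fit 6 were lower and 0 higher. Of 273 solute carriers tested, 109 were lower and 46 higher, from SLC17A8, a vesicular glutamate carrier (0.943 to 0.0577 CPM), to the iron exporter SLC40A1. Among them 6 reached the filter's level on day 9 only and 3 on day 4 only.

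Replication and division genes fell modestly. All 30 S phase genes were tested, 24 were lower and 3 higher (median log2 fold change −0.74). Of 30 mitosis genes 22 were lower and none was higher (median −0.61). POLA1, the polymerase that primes replication, had the largest decrease of the S phase list (127 to 38.3 CPM, log2 fold change −1.73), and MCM3, a subunit of the replicative helicase and the highest of the list on day 4, fell from 377 to 202 CPM. CCNE2, TYMS and ORC6 rose (log2 fold changes 1.06, 0.54 and 0.74), TYMS not passing in 3 of the 6 fits with 1 library left out. In the mitosis list CENPF, a kinetochore protein, had the largest decrease (942 to 340.2 CPM, log2 fold change −1.47), and the proliferation marker MKI67 stood at 242, 445 and 362 CPM on day 4 and 194, 125 and 207 CPM on day 9 (log2 fold change −0.996, SE 0.26, adjusted p = 0.0155). CDK1, CCNA2 and CCNB2 did not pass. With all 15 libraries in one fit, 6 S phase and 12 mitosis genes were lower. Of 18 genes of G1 control tested, 9 were higher and 2 lower. Only 1 was lower without the day 4 library of plate 1 or with all 15 libraries in one fit. Of the 18, 1 reached the filter's level on day 9 only. CDK6 rose from 33.1 to 232 CPM and CCND2, the most highly expressed, from 189.6 to 475 CPM, and the growth arrest genes BTG2 and GADD45A rose from 6.46 to 61.4 CPM and from 5.71 to 53.4 CPM. The CDK inhibitor CDKN2B had the largest increase (log2 fold change 3.37) at low levels, and CDKN1A, MYC and CCND1 did not pass.

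Of the genes that write and erase DNA methylation, DNMT3B stood out. It stood at 2800.0, 2845 and 2569 CPM on day 4 and 272, 192 and 193 CPM on day 9 (log2 fold change −3.64, SE 0.19, adjusted p = 4.33e-06), and it is the de novo methyltransferase of pluripotent cells. DNMT3A, its paralogue of later stages, rose from 169 to 270.1 CPM (log2 fold change 0.68, SE 0.16, adjusted p = 0.00734), and the maintenance enzyme DNMT1 fell from 231 to 141 CPM. TET1 fell and TET2 rose by smaller amounts (log2 fold changes −0.38 and 1.12), TET1 not passing in 5 of the 6 fits with 1 library left out, and TET3 did not pass. In all, 5 of 15 genes of this list were lower and 3 higher, and 1 reached the filter's level on day 4 only. Of 59 replication-dependent histone genes tested, 19 were lower and 4 higher, and the linker histone H1-1 had the largest decrease (9.18 to 0.521 CPM). No histone gene was higher without the day 4 library of plate 2 or without that of plate 5, and 1 was without the day 9 library of plate 2.

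Imprinted and early growth genes included large increases. Of 25 listed, 21 were tested, 8 were higher and 3 lower, and 5 were higher without the day 4 library of plate 2 or of plate 5. IGF2, the fetal growth factor, stood at 3.18, 4.74 and 3.55 CPM on day 4 and 353, 960.0 and 107 CPM on day 9 (log2 fold change 6.96, SE 0.85, adjusted p = 0.00045). Its imprinted neighbour H19 stood at 5.00, 4.38 and 4.92 CPM on day 4 and 211, 700.5 and 82.0 CPM on day 9 (log2 fold change 6.12, SE 0.82, adjusted p = 0.000689). Both varied among day 9 libraries in the same order. The growth regulators DLK1 and PLAGL1 rose from 11.8 to 106 CPM and from 0.942 to 15.9 CPM, DLK1 not passing in 3 of the 6 fits with 1 library left out. HMGA1, the most highly expressed, did not pass (1553 to 1210.2 CPM), and IGF2BP3, an RNA-binding protein, had the largest decrease (log2 fold change −1.28). In the insulin and IGF list 20 genes were tested, 9 were higher and 5 lower. IGFBP2, a binding protein abundant in stem cells, had the largest decrease (1558 to 131 CPM, log2 fold change −3.57), the receptor INSR fell from 379.6 to 169 CPM, and the glucose-responsive TXNIP rose from 102 to 461 CPM.

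Most antigen presentation genes fell. All 18 listed were tested, 13 were lower and none was higher, with a median log2 fold change of −1.12 and 1 gene at the filter's level on day 4 only. Summed over the list, the levels were 3007, 4195 and 3743 CPM on day 4 and 1316, 1307 and 3011 CPM on day 9. The day 9 library without a plate number thus overlapped the day 4 libraries in this sum. TAP1, which pumps peptides into the endoplasmic reticulum, had the largest decrease, at 38.4, 42.7 and 41.6 CPM on day 4 and 1.90, 2.74 and 2.88 CPM on day 9 (log2 fold change −4.01, SE 0.18, adjusted p = 2.35e-06). PSMB8 and PSMB9, subunits of the immunoproteasome, fell from 7.90 to 0.697 CPM and from 1.502 to 0.169 CPM. B2M, the light chain of class I molecules, had the smallest decrease, at 82.0, 85.2 and 91.6 CPM on day 4 and 57.5, 67.0 and 77.5 CPM on day 9 (log2 fold change −0.36, SE 0.13, adjusted p = 0.0497), and did not pass in 5 of the 6 fits with 1 library left out. HLA-B, HLA-C and HLA-E did not pass. HLA-B stood at 69.7, 87.7 and 94.4 CPM on day 4 and 153, 79.2 and 419.8 CPM on day 9, where the day 9 library without a plate number stood above all others, and passed as higher without the day 9 library of plate 6. Without the day 4 library of plate 1 the peptidase gene ERAP2 passed as higher. CALR, a chaperone of the endoplasmic reticulum and the most highly expressed member, fell from 1260.3 to 528 CPM and did not pass in 4 of the 6 fits with 1 library left out. The HLA genes are near-identical to one another in places, so their counts are uncertain. The lower count was 8 without the day 4 library of plate 2, without that of plate 5 and without the day 9 library of plate 2, and leaving out 1 library gave 8 to 15. IDO1, named above, is known as an interferon-responsive gene. The 250 bases before the B2M start (GRCh38.p14 chr15:44711267-44711516, plus strand, RefSeq) are shown because they hold GAAA-NN-GAAA, read on both strands, the core of the interferon-stimulated response element, at 2 overlapping positions, in capitals.
B2M upstream: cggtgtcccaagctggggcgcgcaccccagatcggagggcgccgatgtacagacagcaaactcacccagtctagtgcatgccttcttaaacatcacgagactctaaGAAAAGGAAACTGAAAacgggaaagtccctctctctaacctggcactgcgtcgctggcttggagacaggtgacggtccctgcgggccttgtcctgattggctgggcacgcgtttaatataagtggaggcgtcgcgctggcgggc
The motif was in 7 of 19 windows of the list (36.8%, those of B2M, ERAP2, HLA-F, PSMB10, TAP1, TAP2 and TAPBP) and in 3.02% of all windows. Of these 7 genes, ERAP2 and PSMB10 did not pass the test. The matches describe letters only, and a role of interferon was not tested.

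Named long noncoding RNAs moved in both directions. Of 28 listed, 25 were tested, 8 were higher and 11 lower, with 4 at the filter's level on day 9 only and 1 on day 4 only. ESRG, a transcript of embryonic stem cells, had the largest decrease, at 411, 293 and 383 CPM on day 4 and 4.96, 2.28 and 4.42 CPM on day 9 (log2 fold change −6.55, SE 0.32, adjusted p = 5.2e-06). LINC00678 and MIAT fell from 118 to 2.06 CPM and from 259 to 8.17 CPM, whereas LINC00458 and TUNAR did not pass (28.8 to 17.3 CPM and 123 to 111 CPM). HAND2-AS1 rose from 2 counts in all to a day 9 mean of 25.3 CPM (95% exact interval of the count ratio 266 to 7966), but its exons overlap those of HAND2 on the other strand, so reads of the pair may have been assigned to one another. CARMN, a lncRNA of cardiac and smooth muscle, rose from 0.995 to 21.6 CPM. MALAT1, a nuclear RNA and the most abundant of the list, rose from 2938 to 6109 CPM. Splicing regulators showed 6 higher and 5 lower of 19 tested, near the shares of all genes. RBM20, which splices titin, had the largest increase, at 0.195, 0.358 and 0.941 CPM on day 4 and 109, 69.8 and 119 CPM on day 9 (log2 fold change 7.68, SE 0.46, adjusted p = 1.66e-05), and RBM24, of the same tissues, rose from 2.40 to 83.4 CPM. ESRP1 had the largest decrease, and QKI, one of the more abundant, the smallest increase (log2 fold change 0.39), which did not pass in 4 of the 6 fits with 1 library left out. Without the day 9 library that has no plate number, 3 splicing regulators were lower.

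Ribosomal protein genes rose by small amounts. Of 84 tested, 49 were higher and 4 lower, with a median log2 fold change of 0.42, and no gene changed by as much as 2-fold. RPLP0, the highest of the list on day 9, stood at 2585, 1934 and 2112 CPM on day 4 and 3004, 3375 and 3340.1 CPM on day 9 (log2 fold change 0.55, SE 0.16, adjusted p = 0.0177). The range was from RPL17 (log2 fold change −0.73) to RPL29 (log2 fold change 0.79). This count depended on the fit, since it was 0 with all 15 libraries in one fit, 30 with the sequencing lane as a term, and 20 and 19 without the day 4 libraries of plates 2 and 5. Many of these genes have processed pseudogenes that can share their reads. Of 233 zinc finger genes on chromosome 19, many of them repressors of transposable elements, 67 were higher (33 with all 15 libraries in one fit) and 55 lower, shares close to those of all genes. The range was from ZNF66 (50.2 to 10.4 CPM) to ZNF491 (0.658 to 4.24 CPM). Of the 233, 2 reached the filter's level on day 9 only.

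Levels on the neighbouring days are given for orientation. On a common scale over all 15 libraries, POU5F1 had means of 1054, 1002, 73.9 and 7.11 CPM on days 0, 4, 9 and 11. SOX17 had 0.0280, 0.0305, 32.6 and 4.64 CPM, and EOMES 0.0623, 0.168, 15.3 and 1.26 CPM, so that both were highest on day 9 among these days. The series held no bulk library between day 4 and day 9, so a higher level in between cannot be seen. NKX2-5 rose further to a day 11 mean of 140.0 CPM, and MYH6 had means of 32.0 CPM on day 9 and 8614 CPM on day 11. HAND2 had 150.4 and 64.6 CPM on these days, and GATA4 193 and 212 CPM. The values for days 0 and 11 are given as a description and were not tested here.

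**Figure D5:**
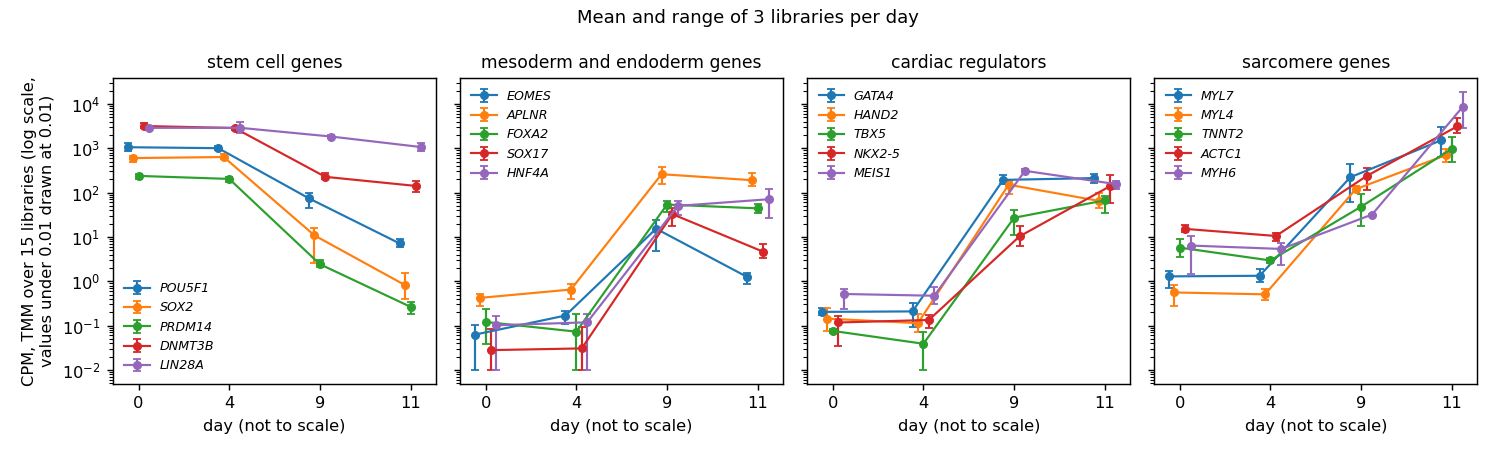
Mean CPM on days 0, 4, 9 and 11 (x axis, not to scale), with bars from the lowest to the highest of 3 libraries, on a log y axis scaled over all 15 libraries. Stem cell genes were level from day 0 to day 4 and lower from day 9. Among the days shown EOMES and SOX17 were highest on day 9, and no library lay between day 4 and day 9. Cardiac regulators were higher from day 9, and the sarcomere genes were higher again on day 11.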

How the data were processed

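Total RNA depleted of ribosomal RNA was sequenced from H1 cultures. According to the submitters' processing notes and the study's methods, the authors aligned reads to GRCh38 with STAR 2.5.2b and deposited raw counts per gene from featureCounts 1.5.1, with ribosomal RNA and mitochondrial genes removed. The strand setting of the counting was not given in the sources used here. The deposited TPM values were computed by the authors from these counts and gene lengths. The sample table deposited by the authors also holds the RNA integrity number, a score, and the fraction of uniquely mapped reads.

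Symbols were taken from GENCODE v44. Counts of the 3 day 4 and 3 day 9 libraries were tested with edgeR 4.0.16 (R 4.3.3; filterByExpr with minimum counts of 10 per library and 15 in total, TMM, robust quasi-likelihood test, Benjamini-Hochberg adjustment over 21252 genes). Standard errors (SE) are of the log2 fold change, and all fold changes are day 9 minus day 4. The labels call the samples biological replicates without naming separate cultures. The p-values set the difference between the days against the spread among these samples. Whether that spread covers separate differentiations cannot be told. No column of another series was present. Members and gene lists were chosen with earlier results of these data known. Named genes were, in each list, the called members with the largest and smallest change, the most highly expressed and those that did not pass, and over all genes the 10 largest increases and decreases among called genes with at least 10 CPM and the 5 largest gains and losses of TPM. Some genes that this rule would name are not reported here. Further members were named for their known roles with their values in view. A group at 0 counts was set to a floor of 3 counts over the group, and intervals at 95% cover counting error only. DESeq2 1.42.0, limma 3.58.1, other normalizations, filters, thresholds and sets of libraries were tried as alternatives. The edgeR step was tested on simulated data in which far fewer genes changed than in these libraries. That test does not cover changes of this extent. Sequences are from RefSeq (GRCh38.p14).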

Additional observations from a re-analysis of the deposited data

How the results depend on the processing

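With all 15 libraries in one fit, 2939 genes were higher and 3270 lower. At an adjusted p under 0.01, 3433 were higher, and with a fold change of at least 2 as well 2958 were higher and 3088 lower. Leaving out 1 library gave 4154 to 5252 higher and 4399 to 5262 lower genes. The other settings kept both counts within 1.5 times. With the sequencing lane as a replicate block 4498 genes were higher and 4698 lower, but same-lane deviations correlated with r of −0.062 to 0.013, so that the lane number did not pair the samples, and the days shared a single plate number, 2. Of 1476 list counts computed, 1332 stayed within 1.5 times, and the cause of the others was not tested. Named genes whose log2 fold change changed sign follow, none of them called in the reported test. Most were near 0 there, but JAG1 had a log2 fold change of 1.21 and CLDN4 of 0.43. RYR2 passed as lower without the day 9 library of plate 6. For named genes that did not pass in the reported test, 73 values under an alternative did pass. Then follow, with their log2 fold changes, called genes that lost their call when 1 library was left out. With all 15 libraries in one fit, the values were ACVR1B −0.049. With library size in place of TMM, the values were AFP 0.026, PFKP 0.049, TET3 0.056, TGFBR1 0.039. With limma on log2 TPM plus 0.1, the values were ACVR1B −0.063, RYR2 −0.12. With limma on log2 TPM plus 1, the values were ACVR1B −0.061, RYR2 −0.097. With a mean of at least 1 CPM, the values were TET3 0.0015. With no filter on low counts, the values were ACVR1B −0.00024. With the lane as a replicate block, the values were ACVR1B −0.044, AFP 0.0044, RYR2 −0.10. With upper-quartile normalization, the values were ACVR1B −0.015. Leaving out 1 library, the values ranged from −0.28 to 0.20 for ACVR1B, from −0.30 to 0.33 for AFP, from −0.065 to 0.71 for CLDN4, from −0.16 to 0.29 for FGFR4, from −0.38 to 0.12 for ITGB1, from −0.017 to 1.72 for JAG1, from −0.045 to 0.29 for MEF2D, from −0.52 to 0.23 for PAX6, from −0.17 to 0.087 for PFKP, from −0.062 to 0.18 for PSMB10, from −0.56 to 0.36 for RYR2, from −0.12 to 0.043 for TET3, from −0.22 to 0.42 for TFCP2L1, from −0.18 to 0.088 for TGFBR1, from −0.69 to 0.084 for THBS1, from −0.31 to 0.16 for TUNAR. The called genes that did not pass without the day 4 library of plate 1 were B2M (−0.40), FGF8 (1.46), FGFR1 (−0.57), FZD7 (−0.68), IRX4 (−0.92), LIN28A (−0.40), PLN (4.34), QKI (0.43), SLC2A3 (0.75), TET1 (−0.43), TYMS (0.52). The called genes that did not pass without the day 4 library of plate 2 were B2M (−0.38), CALR (−1.04), CLDN18 (1.03), DLK1 (3.18), FGF8 (1.21), FZD7 (−0.85), IRX4 (−0.68), LEFTY1 (−2.05), LEFTY2 (−1.81), MKI67 (−0.80), PLN (3.38), QKI (0.31), RPLP0 (0.45), SLC2A3 (0.81), TET1 (−0.39), TPM4 (0.47), VWF (3.33). The called genes that did not pass without the day 4 library of plate 5 were B2M (−0.32), CALR (−1.30), CLDN18 (0.96), DLK1 (2.80), FGF8 (1.09), IRX4 (−0.96), LAMA5 (−0.40), LEFTY1 (−1.64), LEFTY2 (−2.61), LIN28A (−0.69), PLN (3.55), QKI (0.41), RPLP0 (0.51), STARD4 (−0.30), TET1 (−0.33), TPM4 (0.49), TYMS (0.42), VWF (3.19). The called genes that did not pass without the day 9 library of plate 2 were B2M (−0.24), CALR (−0.997), CLDN18 (0.91), FGF8 (1.23), FGFR1 (−0.59), FGFR2 (−0.41), FRZB (−2.53), FZD7 (−0.72), LAMA5 (−0.36), LEFTY1 (−2.36), LEFTY2 (−2.59), LIN28A (−0.61), QKI (0.31), STARD4 (−0.50), TET1 (−0.36), TYMS (0.46). The called genes that did not pass without the day 9 library of plate 6 were B2M (−0.33), CALR (−1.07), FGFR1 (−0.47), FZD7 (−0.59), IRX4 (−0.67), LEFTY1 (−2.10), LEFTY2 (−2.55), PLN (0.91), STARD4 (−0.46), TET1 (−0.27). The called genes that did not pass without the day 9 library with no plate number were DLK1 (2.02), FGF8 (0.82), FRZB (−2.53), IRX4 (−0.80), LEFTY1 (−1.95), LEFTY2 (−2.56), LHX5 (−7.35), LIN28A (−0.55), PLN (4.24), STARD4 (−0.40), VWF (2.43). Depth limits genes at a few counts, whose fold changes rest on the prior count.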

Other observations

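Groups of genes outside the lists above were picked after their values were seen, and their counts are a description. Metallothioneins, which bind zinc and copper, were lower: of 10 with a row 7 were tested and 6 fell, among them MT1G (29.1 to 0.421 CPM), MT1H (18.8 to 0.0926 CPM), MT1X (26.2 to 3.42 CPM) and MT2A (15.3 to 1.12 CPM), while MT1M did not pass. These genes are near-identical in places, so their counts are uncertain. Of 17 genes of synapses and neurofilaments with a row, the 16 tested fell. SNAP25, under the filter, had means of 0.199 CPM on day 4 and 1.16 CPM on day 9, and CBLN2, a synaptic organiser outside this group, rose, as given in the report. KIF1A, an axonal motor, fell from 627 to 54.6 CPM, and NEFL, a neurofilament, from 60.7 to 1.91 CPM.

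Of 18 Hippo pathway genes 10 were higher and 2 lower. The effector YAP1 rose from 133 to 407 CPM (log2 fold change 1.61, SE 0.13, adjusted p = 3.93e-05), and the angiomotins AMOT, AMOTL1 and AMOTL2, which bind it, rose from 12.7 to 169 CPM, 30.6 to 264 CPM and 31.8 to 239.8 CPM. The kinases LATS1 and LATS2 did not pass. The repressive histone variants MACROH2A1 and MACROH2A2 rose from 19.1 to 162 CPM (log2 fold change 3.09, SE 0.34, adjusted p = 0.000264) and from 17.3 to 188 CPM (log2 fold change 3.44, SE 0.19, adjusted p = 5.46e-06). The row of the let-7i hairpin, MIRLET7I, rose at very low counts (0.0949 to 0.871 CPM), and its host MIRLET7IHG from 2.79 to 7.03 CPM.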
